A study of Mus musculus with 12 samples.

Results

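The response of the mouse abdominal aorta to angiotensin II (Ang II) was compared between 2 genotypes, to find genes that moved in opposite directions. The difference between the responses, (CSA − CSS) − (CFA − CFS), was fitted on log2(FPKM + 0.1) for the 14676 of 55092 listed features whose FPKM reached 1 in 3 or more mice. FPKM are fragments scaled to the length of the gene and the size of the library. A gene entered the opposite set when its response in CCN2SMCΔ mice had a limma p-value, adjusted by the Benjamini-Hochberg method, under 0.05, its response in CCN2fl/fl mice had an unadjusted p under 0.05 and the other sign, and the difference was called (adjusted p under 0.05 and over 1.5 on the log2 scale). The set held 57 genes, 0.388% of those tested. Of these, 43 (0.293% of those tested) were higher with Ang II in CCN2fl/fl and lower with it in CCN2SMCΔ mice, and 14 (0.0954%) had the reverse order. They are set against 853 genes with a called response in CCN2SMCΔ mice, a called difference, and a response whose 95% interval in CCN2fl/fl mice lay within 1 log2 unit of 0 (a bounded response), not counting members of the opposite set. Of the 43, 8 also met that definition (Col4a3, Col4a5, Pamr1, Slit3, Bace2, Akap12, Thbd and Pam), so that for them the classes differ only by the unadjusted p and sign in CCN2fl/fl mice. All these classes were chosen from the values themselves, so the values of their members are given as a description, without a test.

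CCN2fl/fl mice carry floxed Ccn2 alleles without Cre, and CCN2SMCΔ mice carry the same alleles with Myh11-Cre-ERT2, which acts in smooth muscle cells (SMC), so that the transgene and the deletion cannot be told apart. Both genotypes were male and received 5 doses of tamoxifen at 8 weeks of age, followed by a washout of 2 weeks. Minipumps then delivered saline to CFS (CCN2fl/fl) and CSS (CCN2SMCΔ) mice, or Ang II at 500 ng/kg/min to CFA (CCN2fl/fl) and CSA (CCN2SMCΔ) mice, for 7 days. With this infusion the study reports infrarenal aneurysms in nearly all CCN2SMCΔ mice. A few CCN2fl/fl mice had mild ones, in the thoracic or suprarenal aorta. RNA came from the infrarenal aorta. The sources used here do not give aneurysm status for the sequenced mice, so genotype and aneurysm cannot be told apart in the Ang II groups. Each group held 3 mice with 1 poly(A) RNA library each, and 14558580 to 23107811 fragments per library were recovered from the deposited values.

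Ang II is a peptide hormone that constricts arteries through a receptor of SMC coupled to G proteins, and prolonged infusion thickens the aortic wall and, in susceptible mice, leads to aneurysm. CCN2 is a secreted matricellular protein that binds growth factors and integrins. SMC of the media carry the contractile apparatus and make the elastic fibres and basement membrane around them.

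The targeted gene was read in every mouse as a check of the labels. Ccn2 (ENSMUSG00000019997, chromosome 10, 24595442 to 24598683 on GRCm38, also called mm10) measured 709.5, 1108 and 480.1 FPKM in CFS, 1013, 1105 and 564 in CFA, 436, 639.9 and 587 in CSS, and 255, 331 and 399 in CSA. CFS overlapped both CFA and CSS, and the CSA mice lay below the CSS and the CFA mice. CSS was not distinguishable from CFS, with a log2 difference of -0.40 (95% interval -1.14 to 0.34), and CSA differed from CFA by -1.41 (limma, Benjamini-Hochberg adjusted p = 0.00622). The saline libraries alone therefore do not tell the genotypes apart by this gene. By qPCR of aortas with Ang II, the study reports that most of the total CCN2 mRNA was lost in CCN2SMCΔ mice. That is a larger fall than the one between CFA and CSA in these libraries, and the reason was not tested. In a separate cohort the study reports less CCN2 protein in CCN2SMCΔ aortas with saline and with Ang II, and a larger change with Ang II. The log2 response to Ang II was 0.25 (standard error 0.34) in CCN2fl/fl and -0.76 (0.34) in CCN2SMCΔ mice, and the difference of -1.01 did not pass the test (limma, Benjamini-Hochberg adjusted p = 0.148). Ccn2 transcript thus remained in whole aortas of CCN2SMCΔ mice, and the part of it that came from SMC was not measured.

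The SMC genes of the list used here (34 genes of the contractile apparatus and its regulators) were detected in every group (none was at 0 in all 3 mice), with a summed level of 15567 to 19527 FPKM in CFS, 11243 to 15329 in CFA, 14945 to 16872 in CSS and 1608 to 2158 in CSA. Of the 34, 33 were called lower in CSA than in CSS, beside 9.36% of all tested genes. Fewer cells of a type and less RNA per cell cannot be told apart in these libraries. The root mean square log2 distance was 0.505 between CSA mice 01 and 02, and 1.20 and 1.21 from each to CSA mouse 03. Leaving out CSA mouse 03 raised the opposite set from 57 to 97 genes, of which 52 were shared.

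Promoters of 4 genes are shown before the values, since these genes mark the patterns described below: Hhip and Rgs2 for the opposite directions, and Ifit3 and Myl9 for responses found in CCN2SMCΔ mice. Each runs from 250 bases before to 50 bases after the RefSeq start on GRCm38.p6, 5′ to 3′ on the strand of the gene. Hhip lies at chr8:80057959-80058258 on the minus strand, Rgs2 at chr1:144004100-144004399 on the minus strand, Ifit3 at chr19:34583279-34583578 on the plus strand and Myl9 at chr2:156775214-156775513 on the plus strand.
Hhip: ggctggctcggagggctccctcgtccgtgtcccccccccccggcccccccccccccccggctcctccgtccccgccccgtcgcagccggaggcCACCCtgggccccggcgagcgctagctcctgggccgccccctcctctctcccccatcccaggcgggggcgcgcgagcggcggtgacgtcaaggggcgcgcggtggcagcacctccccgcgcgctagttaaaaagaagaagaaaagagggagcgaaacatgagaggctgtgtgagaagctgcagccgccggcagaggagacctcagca
Rgs2: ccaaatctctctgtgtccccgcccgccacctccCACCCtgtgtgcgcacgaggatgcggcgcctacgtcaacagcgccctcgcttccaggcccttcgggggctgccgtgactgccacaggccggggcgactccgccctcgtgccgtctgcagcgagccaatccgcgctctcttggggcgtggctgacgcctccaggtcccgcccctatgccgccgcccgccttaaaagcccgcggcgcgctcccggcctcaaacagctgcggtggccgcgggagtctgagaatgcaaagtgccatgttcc
Ifit3: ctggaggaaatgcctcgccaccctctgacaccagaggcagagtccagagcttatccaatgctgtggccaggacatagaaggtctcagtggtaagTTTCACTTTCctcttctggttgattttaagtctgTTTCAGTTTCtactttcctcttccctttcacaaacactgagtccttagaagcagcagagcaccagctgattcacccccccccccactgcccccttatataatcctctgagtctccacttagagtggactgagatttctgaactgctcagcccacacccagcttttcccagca
Myl9: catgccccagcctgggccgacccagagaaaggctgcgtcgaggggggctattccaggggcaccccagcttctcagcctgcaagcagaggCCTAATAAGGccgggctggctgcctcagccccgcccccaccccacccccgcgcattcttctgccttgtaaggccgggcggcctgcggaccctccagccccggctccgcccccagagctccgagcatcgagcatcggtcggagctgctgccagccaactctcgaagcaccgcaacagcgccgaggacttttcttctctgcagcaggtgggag
Capitals mark CACCC, the core letters of the KLF motif, in Hhip and Rgs2, 157 and 217 bases upstream of the start. They mark the ISRE GAAANNGAAA, which appears here on the other strand, in Ifit3, 156 and 122 bases upstream, and the CArG box in Myl9, 161 bases upstream. Searched on both strands, CACCC was present in 57.5% of 32851 promoters of this length, the ISRE in 3.44% and the CArG box in 1.63%. The Ifit3 and Myl9 windows hold CACCC as well, 3 times each, printed in lower case. A match describes letters in the window and not a bound site. Only 35 of the 57 genes (61.4%) and 69.3% of the tested genes had a promoter in the table, so a comparison of motifs between the classes was void.

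More genes were called for their response to Ang II in CCN2SMCΔ than in CCN2fl/fl mice. Of the 14676 genes, 2977 (20.3%) were called in CCN2SMCΔ mice, with 1604 higher and 1373 lower, against 4 (0.0273%) in CCN2fl/fl mice. The count of 4 was not stable, at 124 without CFA mouse 74 and 147 with array weights. At an unadjusted p under 0.05, 1383 genes (9.42%) responded in CCN2fl/fl mice, 824 upwards and 559 downwards. The median absolute response was 0.18 log2 units in CCN2fl/fl and 0.60 in CCN2SMCΔ mice. The difference between the responses was called for 2231 genes (15.2%), 1158 (7.89%) higher and 1073 (7.31%) lower in CCN2SMCΔ mice.

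Of the 2231 genes with a called difference, 1500 (67.2%) had estimates of the same sign in both genotypes and 721 of opposite signs, with 10 at exactly 0 in CCN2fl/fl mice, beside 62.3% of the same sign over all tested genes. The share was 76.6% for the 1158 higher differences and 57.1% for the 1073 lower ones, which is under the share over all genes. Of the 2977 genes called in CCN2SMCΔ mice, 2281 (76.6%) had an estimate of the same sign in CCN2fl/fl mice and 683 (22.9%) of the other sign, with 13 at exactly 0. The estimates of the responses in the 2 genotypes share no mouse, but the spread behind their p-values was pooled over the groups. Among the 1604 genes that rose in CCN2SMCΔ mice, 452 (28.2%) had a response of the same sign at an unadjusted p under 0.05 in CCN2fl/fl mice and 8 (0.499%) one of the other sign. Among the 1373 that fell, 197 (14.3%) had the same sign at that p and 27 (1.97%) the other. The median response in CCN2fl/fl mice was 0.51 for the genes that rose, against 2.90 in CCN2SMCΔ mice, and -0.17 for the genes that fell, against -2.32.

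**Figure D1:**
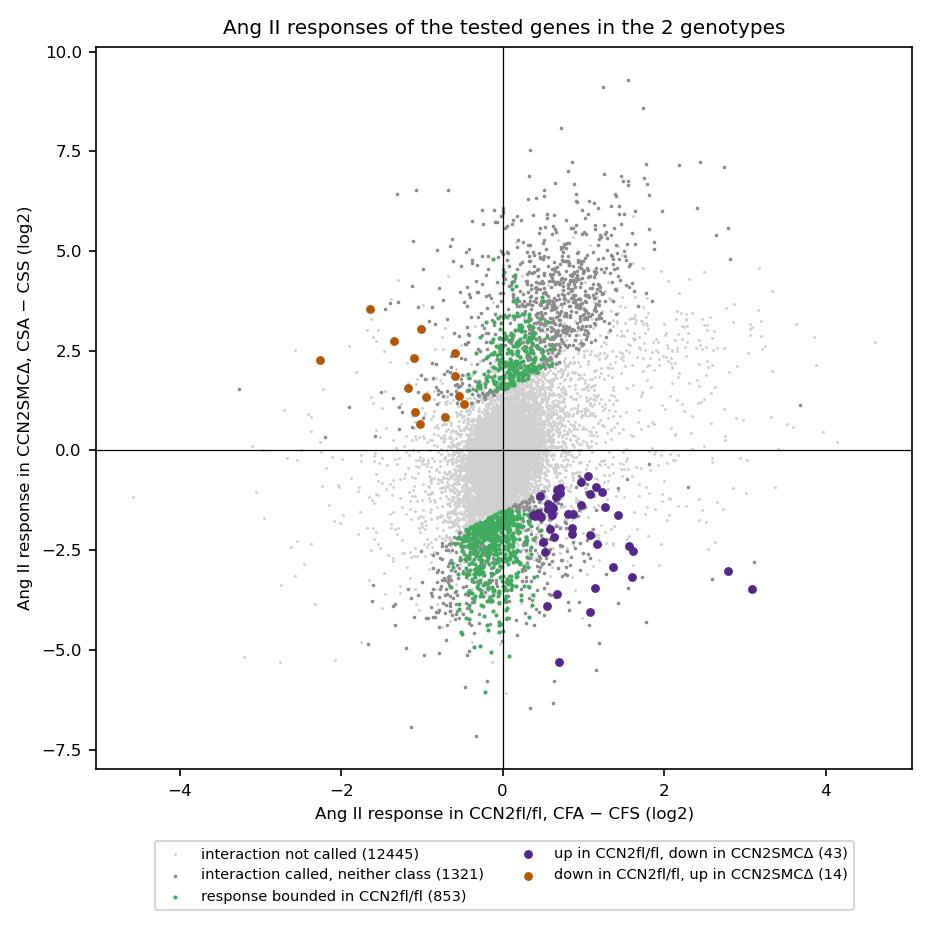
Log2 response to Ang II of each tested gene in CCN2fl/fl mice (horizontal axis) and CCN2SMCΔ mice (vertical axis), 1 point per gene. The 43 genes up in CCN2fl/fl and down in CCN2SMCΔ mice lie at the lower right, the 14 genes with the reverse order in the upper left, and the 853 genes with a bounded response in CCN2fl/fl mice along the vertical axis.

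A strict test asked for both responses to be nonzero with opposite signs, taking the larger of the 2 p-values and adjusting it over all tested genes. Genes whose signs were not opposite entered that adjustment at the largest possible p. The strict test gave 0 genes, and the smallest limma p after Benjamini-Hochberg adjustment was 1. Unadjusted, 99 genes (0.675%) had a larger p under 0.05, and the smallest (0.000416) was that of Fbln5. As a count without a model, 283 genes (1.93%) had 3 Ang II mice apart from 3 saline mice in both genotypes in opposite directions, and 1553 (10.6%) were apart in the same direction. The set of 57 therefore rests on responses in CCN2fl/fl mice that were not called on their own, except for that of Gxylt2 by its adjusted p. At the edge of the set, Trib1, Ccdc86 and Ihh entered with an unadjusted limma p in CCN2fl/fl mice of 0.0488, 0.0494 and 0.0494, and 2210407C18Rik, Heg1 and Efnb2 stayed out with 0.0501, 0.0514 and 0.0531.

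The 43 genes higher with Ang II in CCN2fl/fl and lower in CCN2SMCΔ mice had a median response of 0.82 and -1.63 on the log2 scale. For 39 of them the change was larger in CCN2SMCΔ mice. The 3 CFA mice lay above the 3 CFS mice for 34, and the 3 CSA mice below the 3 CSS mice for all 43. CSA had the lowest mean of the 4 groups for 41 genes, and CFA the highest for 33. Under saline the mean was higher in CSS than in CFS for 39 of 43 (median difference 0.54), beside 52.7% of all tested genes, but the saline mice also entered the choice of the genes. Some of the 57 genes are named because their values or roles were seen and not by the rule for named genes: those of the hedgehog pathway, the type IV collagens, and Ntn4, Igfbp7, Htra1, Gxylt2, Pamr1, Thbd, Slit3, Dsp, Pam, Bace2, Akap12, Isl1, Trim58, Snora2b, Gm38150, Nfkbia, Slc6a2 and Gm45774, while Trib1 and Ccdc86 are named only as the members nearest to the threshold.

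**Figure D2:**
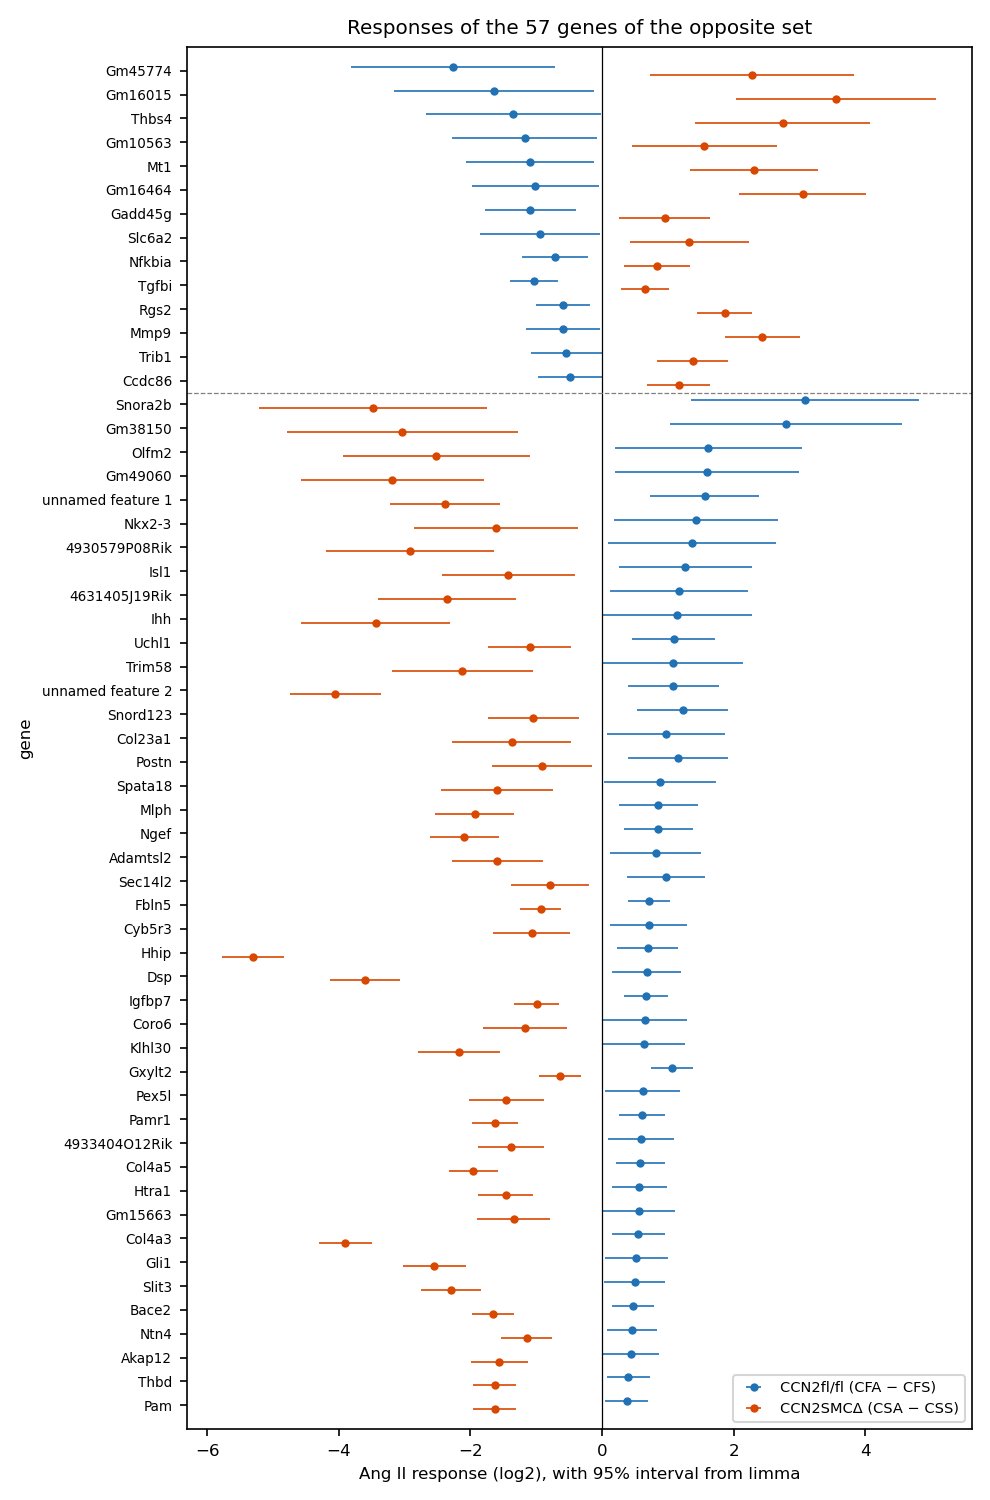
Log2 response to Ang II of the 57 genes in CCN2fl/fl mice (blue) and CCN2SMCΔ mice (orange), with the estimate as a point and its 95% interval from limma as a line. The 14 genes above the dashed line were lower with Ang II in CCN2fl/fl mice and the 43 below it were higher, and the intervals in CCN2fl/fl mice often end close to 0.

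Genes of the hedgehog pathway were in the set, and Hhip had the largest difference among the members with a highest group mean of at least 2 FPKM. Hedgehog ligands bind the receptor PTCH1, which releases SMO to activate GLI transcription factors, and HHIP binds and holds back the ligands. Hhip (ENSMUSG00000064325, chromosome 8, 79965851 to 80058006) measured 7.81, 9.75 and 6.26 FPKM in CFS, 15.1, 12.1 and 11.3 in CFA, 11.4, 10.9 and 11 in CSS, and 0.147, 0.145 and 0.280 in CSA. Every CFA mouse lay above every CFS mouse, and the CSA mice were close to 0. The log2 response was 0.70 (standard error 0.21) in CCN2fl/fl and -5.30 (0.21) in CCN2SMCΔ mice. The CSA values lie near the pseudocount of 0.1, so the size of the fall in Hhip depends on it. Gli1 (chromosome 10, 127329882 to 127341974), a factor and target of the pathway, measured 5.89, 6.98 and 4.62 FPKM in CFS, 8.84, 7.54 and 8.55 in CFA, 7.02, 8.59 and 8.68 in CSS, and 1.79, 1.26 and 0.954 in CSA. Its responses were 0.52 and -2.55 (standard error 0.22 each), with groups apart in both genotypes. The ligand Ihh (chromosome 1, 74945315 to 74951672) was low, at 0.408, 0.438 and 0.399 FPKM in CFS, 1.66, 1.67 and 0.371 in CFA, 1.47, 0.921 and 1.40 in CSS, and 0.0162, 0.0619 and 0 in CSA. CFA mouse 74 lay below the 3 CFS mice, so the CCN2fl/fl groups overlapped, and Ihh stayed in the set in 2 of the 12 fits that each left out 1 mouse.

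For the rest of the hedgehog pathway a list of 14 genes was chosen after the values were seen, and of 13 tested, 10 remained without Hhip, Gli1 and Ihh. Of the 10, 1 was higher and 1 lower at an unadjusted p under 0.05 in CCN2fl/fl mice, where 5.61% and 3.81% of all tested genes were. In CCN2SMCΔ mice 3 were called lower and 0 higher, beside 9.36% and 10.9%. The median responses of the 10 were 0.01 and -0.83. The receptor Ptch1 had responses of 0.52 and -0.61 with a difference of -1.13, under the limit of 1.5 for a call, so that it was not in the set.

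The set also held the type IV collagen genes Col4a3 and Col4a5 and the basement membrane gene Ntn4. Type IV collagen chains assemble into the sheet on which SMC and endothelium sit, and the α3, α4 and α5 chains form 1 kind of network. Col4a3 (chromosome 1, 82586921 to 82722059) measured 4.99, 5.14 and 5.27 FPKM in CFS, 8.65, 6.98 and 7.19 in CFA, 6.59, 6.86 and 6.69 in CSS, and 0.390, 0.468 and 0.242 in CSA. The 4 groups did not overlap between saline and Ang II, and the log2 responses were 0.55 and -3.90 (standard error 0.18 each). Col4a5 (chromosome X, 141475385 to 141689234) measured 53.7, 62.5 and 51.3 FPKM in CFS, 97.4, 80.8 and 73.8 in CFA, 74.3, 68.8 and 76.1 in CSS, and 21.9, 20.5 and 14.6 in CSA. Its responses were 0.58 and -1.96 (standard error 0.17 each), again with groups apart. Ntn4, a laminin-related netrin of basement membranes, had means of 33.6 ± 4.60 FPKM in CFS, 46.4 ± 7.62 in CFA, 39.1 ± 7.60 in CSS and 17.4 ± 0.944 in CSA (SD, n = 3 each), and the CFS and CFA mice overlapped.

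Other type IV collagen chains fell in CCN2SMCΔ mice and were not in the opposite set. Col4a4 had responses of 0.33 and -4.19, and Col4a6 of 0.17 and -3.10, and both were among the 853 genes. Their difference from Col4a3 and Col4a5 in CCN2fl/fl mice was not tested. A list of 23 type IV collagens, laminins, nidogens and related proteins was chosen after the values were seen, and 21 were tested. Without Col4a3, Col4a5 and Ntn4, 0 of the other 18 were higher and 1 was lower at an unadjusted p under 0.05 in CCN2fl/fl mice, beside 5.61% and 3.81% of all tested genes. In CCN2SMCΔ mice 9 of the 18 were called lower and 1 higher, beside 9.36% and 10.9%. The median responses of the 18 were 0.14 and -1.53, and 6 of them were among the 853 (5.81% of all tested genes).

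Elastic fibre and matricellular genes were in the set as well. Fbln5 (ENSMUSG00000021186, chromosome 12, 101746565 to 101819055) encodes fibulin-5, a protein needed for the assembly of elastic fibres. It measured 170.1, 163 and 148 FPKM in CFS, 324, 229.8 and 245 in CFA, 152, 146 and 130.2 in CSS, and 76.6, 74.2 and 73.3 in CSA. All Ang II mice lay apart from the saline mice of their genotype, with responses of 0.72 and -0.93 (standard error 0.14 each). Postn (ENSMUSG00000027750, chromosome 3, 54361109 to 54391037), which encodes the matricellular protein periostin, measured 115, 135 and 116 FPKM in CFS, 325, 424 and 144 in CFA, 275, 206 and 229 in CSS, and 118, 98.7 and 168 in CSA. Its responses were 1.15 and -0.91 (standard error 0.34 each). The groups were apart in both genotypes, with CFA mouse 74 only just above CFS, and Postn stayed in the set in 3 of the 12 fits without 1 mouse.

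Adamtsl2 (ENSMUSG00000036040, chromosome 2, 27079379 to 27108981), a secreted glycoprotein that binds fibrillin microfibrils, measured 4.14, 4.05 and 5.90 FPKM in CFS, 9.57, 9.58 and 6.06 in CFA, 7.82, 5.22 and 7.2 in CSS, and 3.02, 2.53 and 1.28 in CSA. The responses were 0.82 and -1.59 (standard error 0.31 each), and the groups were apart in both genotypes. Htra1, a secreted serine protease, had means of 158 ± 8.33 FPKM in CFS, 239.7 ± 65.1 in CFA, 172 ± 8.57 in CSS and 62.6 ± 9.72 in CSA (SD, n = 3 each). All 55 genes of the extracellular matrix list were tested, and most had a higher estimate with Ang II in CCN2fl/fl mice (41 of 55, beside 49.7% of all tested genes). There, 23 were higher and 4 lower at an unadjusted p under 0.05, beside 5.61% and 3.81%, with a median response of 0.37. The 55 include 3 members of the opposite set, which were chosen partly by this p. Without these 3, 21 of 52 were higher and 3 lower, with a median of 0.36, and 39 of 52 had a higher estimate. In CCN2SMCΔ mice 15 of the 55 were called higher and 11 lower, beside 10.9% and 9.36%, with a median of 0.10. Of the 52, 14 were called higher and 11 lower there, with a median of 0.13. Of the 55, 2 (Fbln5 and Postn) were up in CCN2fl/fl and down in CCN2SMCΔ mice, 1 (Thbs4) had the reverse order, and 10 were among the 853, beside 0.293%, 0.0954% and 5.81% of all tested genes.

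Igfbp7 (chromosome 5, 77349240 to 77408041), an insulin-like growth factor binding protein of the vessel wall, measured 1554, 1889 and 1583 FPKM in CFS, 3174, 2754 and 2132 in CFA, 2357, 2192 and 2325 in CSS, and 1126, 1141 and 1190.4 in CSA. The responses were 0.67 and -0.99 (standard error 0.15 each), and no Ang II mouse overlapped the saline mice of its genotype. Slit3, a guidance ligand, had means of 113 ± 13.5 FPKM in CFS, 161 ± 31.1 in CFA, 174 ± 10.8 in CSS and 36.2 ± 9.43 in CSA, and Pam, the enzyme that amidates peptide hormones, 125 ± 6.18, 164 ± 33.6, 153 ± 8.35 and 49.5 ± 4.68 in the same order (SD, n = 3 each). Slit3 overlapped between CFS and CFA and Pam did not.

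Thbd encodes thrombomodulin, the thrombin receptor of endothelium, and had responses of 0.40 and -1.63 (standard error 0.15 each). Its means were 46.5 ± 5.09 FPKM in CFS, 61.2 ± 6.30 in CFA, 47.1 ± 3.41 in CSS and 15.3 ± 2.47 in CSA (SD, n = 3 each). Of 19 endothelial markers tested, 5 were called lower and 2 higher in CCN2SMCΔ mice, beside 9.36% and 10.9% of all tested genes, and 1 was higher at an unadjusted p under 0.05 in CCN2fl/fl mice, beside 5.61%. Their median responses were 0.23 and -0.54, of the same signs as those of Thbd. None was at 0 in a group, and their summed level was 243 to 735 FPKM in CFS, 434 to 763 in CFA, 588 to 789 in CSS and 265 to 394 in CSA. Their part in the values of Thbd was not tested.

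Gxylt2, a xylosyltransferase acting on EGF repeats, had the smallest p in CCN2fl/fl mice within the set (0.0485 by limma, after Benjamini-Hochberg adjustment over all tested genes). It measured 26.6, 20.3 and 23.7 FPKM in CFS, 59.4, 43.1 and 45.7 in CFA, 33.1, 31.5 and 32.9 in CSS, and 20.6, 19.9 and 22.4 in CSA. The groups were apart in both genotypes, with responses of 1.06 and -0.63 (standard error 0.14 each). Pamr1 had responses of 0.61 and -1.63 (standard error 0.16 each), and the aspartyl protease Bace2 of 0.47 and -1.66 (0.14 each). Both genes had groups apart in both genotypes. The desmosomal linker Dsp had responses of 0.68 and -3.60 (standard error 0.24 each).

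**Figure D3:**
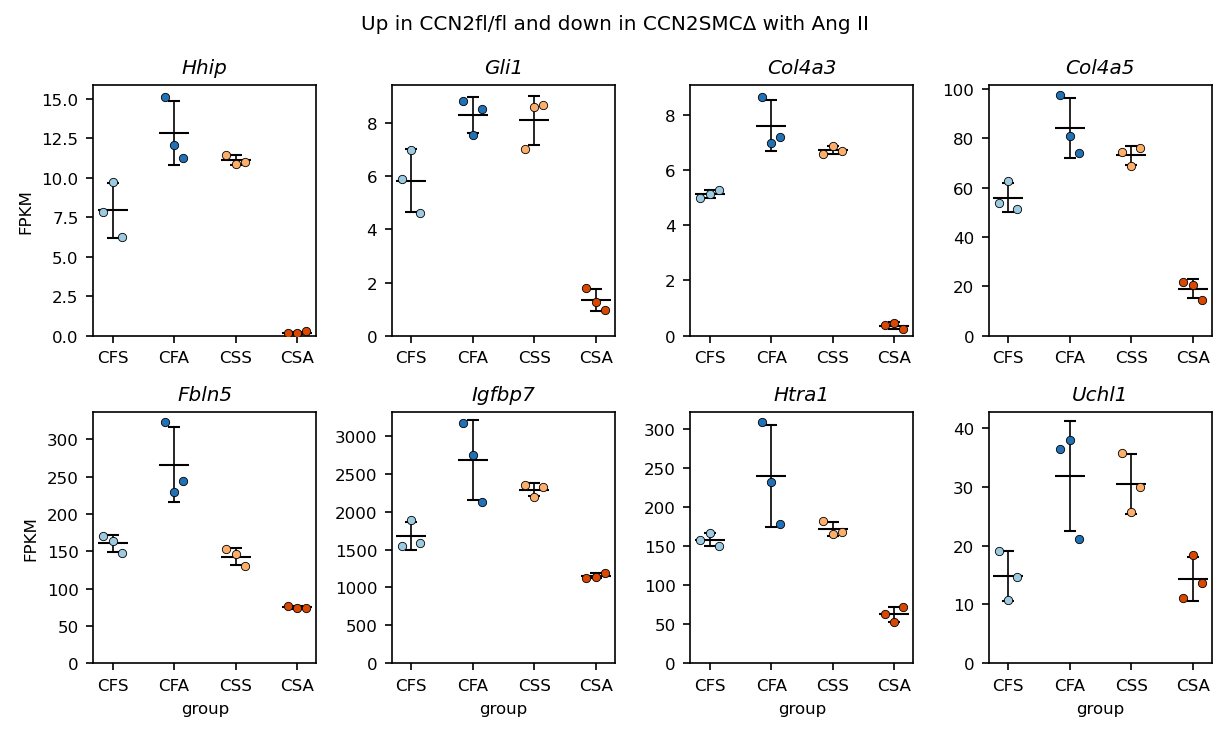
FPKM per mouse of 8 genes higher with Ang II in CCN2fl/fl and lower in CCN2SMCΔ mice, by group, with points for the mice and lines for the mean ± SD (n = 3). Hhip and Col4a3 are close to 0 in the 3 CSA mice, and Fbln5 falls from 143 FPKM in CSS to 74.7 in CSA while it is 160.5 in CFS and 266 in CFA.

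Among the intracellular genes of this order, Uchl1 (ENSMUSG00000029223, chromosome 5, 66676091 to 66687234), a deubiquitinating enzyme best known from neurons, measured 19.1, 10.7 and 14.6 FPKM in CFS, 36.5, 37.9 and 21.1 in CFA, 35.7, 25.7 and 30.0 in CSS, and 11, 18.5 and 13.6 in CSA. The responses were of like size, 1.09 and -1.10 (standard error 0.28 each), with groups apart. Ngef (ENSMUSG00000026259, chromosome 1, 87476834 to 87573870) measured 1.40, 1.23 and 1.53 FPKM in CFS, 2.13, 3.44 and 2.34 in CFA, 5.95, 3.51 and 5.70 in CSS, and 1.06, 1.17 and 1.0 in CSA. The CSS mice were the highest of the 4 groups, and the responses were 0.86 and -2.09 (standard error 0.24 each). Mlph (ENSMUSG00000026303, chromosome 1, 90915085 to 90951142), a linker between Rab27a and myosin, measured 1.74, 1.49 and 1.09 FPKM in CFS, 2.62, 3.11 and 2.25 in CFA, 2.44, 1.68 and 2.32 in CSS, and 0.496, 0.669 and 0.329 in CSA. Its responses were 0.86 and -1.93 (standard error 0.27 each), and the groups were apart in both genotypes.

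The remaining genes of this order that the rule named were low. Olfm2 (ENSMUSG00000032172, chromosome 9, 20667690 to 20746349), which encodes the secreted protein olfactomedin-2, measured 0.589, 0.381 and 0.631 FPKM in CFS, 1.88, 2.3 and 1.36 in CFA, 2.12, 2.29 and 1.71 in CSS, and 0.536, 0.708 and 0 in CSA. Its responses were 1.61 and -2.51 (standard error 0.64 each). Leaving out CSA mouse 03, which was at 0 and enters the estimate of the response in CCN2SMCΔ mice only, moved the difference from -4.13 to -3.18. Nkx2-3 (ENSMUSG00000044220, chromosome 19, 43612325 to 43615892), a homeobox factor, had 2.28, 2.25 and 2.21 FPKM in CFA against 1.43, 0.202 and 1.35 in CFS, and 0.513, 0.357 and 0.154 in CSA against 1.43, 0.971 and 1.15 in CSS. Its groups were apart in both genotypes with responses of 1.42 and -1.61 (standard error 0.57 each), and it stayed in the set in 3 of the 12 fits without 1 mouse. Leaving out CFS mouse 69, which enters the estimate of the response in CCN2fl/fl mice only, moved the difference from -3.04 to -2.27.

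Sec14l2 (ENSMUSG00000003585, chromosome 11, 4097039 to 4123415), a tocopherol-binding lipid transfer protein, had responses of 0.97 and -0.79 (standard error 0.27 each) with means of 1.39 ± 0.435 FPKM in CFS, 2.74 ± 0.451 in CFA, 2.21 ± 0.467 in CSS and 1.23 ± 0.238 in CSA (SD, n = 3 each). The homeobox gene Isl1 had responses of 1.27 and -1.42 (standard error 0.46 each) and stayed in the set in 6 of the 12 fits without 1 mouse. The snoRNA gene Snord123 (ENSMUSG00000089317, chromosome 15, 32241853 to 32241923) is 71 bases long, which raises the FPKM of each fragment, and its 44, 119, 110 and 53 fragments in CFS, CFA, CSS and CSA gave responses of 1.23 and -1.04 (standard error 0.31 each). The processed pseudogene Gm49060 (ENSMUSG00000115836, chromosome 14, 86204742 to 86205372), whose reads may belong to a near-identical copy, rested on 13, 58, 106 and 13 fragments in the same order, with responses of 1.60 and -3.18 (standard error 0.63 each). The long noncoding RNA gene 4930579P08Rik (ENSMUSG00000112924, chromosome 10, 116729253 to 116739760) rested on 48, 162, 102 and 13 fragments, with responses of 1.37 and -2.92 (standard error 0.58 each).

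Fewer fragments lay behind Snora2b and Gm38150, which had the largest response in CCN2fl/fl mice in the set. Snora2b, at 137 bases also shorter than a read, had 67.2% of its exonic bases within another gene. It rested on 1 fragment in CFS, 13 in CFA, 10 in CSS and 0 in CSA, so that the level in CSS was 1.10 times the floor of 3 fragments per library in CSA. Gm38150 had 5, 39, 49 and 5 fragments. Trim58, a ubiquitin ligase of maturing erythroid cells, was at 0 in the 3 CSA mice and had 73, 175, 44 and 0 fragments, so that it was at least 4.69-fold lower in CSA than in CSS by that floor. It stayed in the set in 4 of the 12 fits without 1 mouse. With these genes at their bound the median response of the 43 genes in CCN2SMCΔ mice was still -1.63. The 5 erythrocyte markers tested, from a list of 10, had median responses of 2.03 and -1.63, of the same signs as those of Trim58. All 5 had a higher estimate with Ang II in CCN2fl/fl mice, beside 49.7% of all tested genes, and 1 of them had an unadjusted p under 0.05, beside 5.61%. For the difference between the responses 4 of 5 had an unadjusted p under 0.05, beside 37.7%. None was called in either genotype by limma and none was at 0 in a group, with a summed level of 133.8 to 1248 FPKM in CFS, 766.5 to 2496 in CFA, 420.1 to 515 in CSS and 63.2 to 620.6 in CSA, and their part in the values of Trim58 was not tested. In all, 2 of the 43 genes had no Ensembl identifier, with responses of 1.56 and -2.39 in 1 and of 1.08 and -4.05 in the other, and groups apart in both genotypes. Of the 43, 6 had no group mean as high as 2 FPKM.

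The 14 genes lower with Ang II in CCN2fl/fl and higher in CCN2SMCΔ mice had a median response of -1.02 and 1.71. The 3 CFA mice lay below the 3 CFS mice for 7 of them, and the 3 CSA mice above the 3 CSS mice for all 14. CSA had the highest mean of the 4 groups for all 14. Under saline the CSS mean was above that of CFS for 0 of 14 (median difference -0.83), again with saline mice that entered the choice.

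Rgs2 (ENSMUSG00000026360, chromosome 1, 143999338 to 144004161) encodes a regulator that speeds the shut-off of the G protein used by the Ang II receptor. It measured 8.96, 11.8 and 10.2 FPKM in CFS, 6.42, 5.91 and 8.13 in CFA, 6.28, 6.19 and 7.55 in CSS, and 20.3, 22.8 and 31.6 in CSA. CFA lay below CFS and CSA above CSS without overlap, with responses of -0.59 and 1.87 (standard error 0.19 each), and it was the only gene of the 14 that stayed in the set in all 12 fits without 1 mouse. Of the 12 other RGS genes tested, from a list chosen after the values were seen, 6 were called higher and 4 lower in CCN2SMCΔ mice, beside 10.9% and 9.36% of all tested genes. In CCN2fl/fl mice 3 were higher and 1 lower at an unadjusted p under 0.05, beside 5.61% and 3.81%. Rgs5, a marker of mural cells, had responses of 0.17 and -3.15, and Rgs4 of 0.01 and -2.16. Both were named outside the rule for named genes, and both are examples of a fall in CCN2SMCΔ mice only.

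Tgfbi (ENSMUSG00000035493, chromosome 13, 56609523 to 56639562), a matrix protein induced by TGF-β, measured 151, 211 and 132 FPKM in CFS, 72.6, 76.7 and 89.6 in CFA, 133, 134 and 143 in CSS, and 226, 209 and 211 in CSA. Its responses were -1.03 and 0.66 (standard error 0.17 each), with groups apart in both genotypes. Of 38 TGF-β and Smad genes, 6 were called lower and 2 higher in CCN2SMCΔ mice, beside 9.36% and 10.9% of all tested genes. In CCN2fl/fl mice 3 were higher and 2 lower at an unadjusted p under 0.05, beside 5.61% and 3.81%. The median responses of the list were 0.02 and -0.84.

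Mt1 (ENSMUSG00000031765, chromosome 8, 94179082 to 94180327), a metallothionein that binds zinc and copper and is induced by metals and glucocorticoids, measured 181, 113 and 136 FPKM in CFS, 36.0, 96.8 and 81.2 in CFA, 104, 67.6 and 62.3 in CSS, and 223, 358 and 677 in CSA. The groups were apart in both genotypes and the responses were -1.10 and 2.32 (standard error 0.44 each). Leaving out CFA mouse 71, which enters the estimate of the response in CCN2fl/fl mice only, moved the difference from 3.41 to 2.98. Mt1 stayed in the set in 9 of the 12 fits without 1 mouse. CSA mouse 03 was the highest. Without Mt1, 12 glucocorticoid-responsive genes were tested. Of these, 4 were lower and 0 higher at an unadjusted p under 0.05 in CCN2fl/fl mice, beside 3.81% and 5.61% of all tested genes. There, 1 of the 12 had a higher estimate, beside 49.7%. In CCN2SMCΔ mice 3 were called higher and 2 lower, beside 10.9% and 9.36%, and the median responses of the 12 were -0.70 and 0.03. The metallothionein gene Mt2, which is among the 12 and in a list of 3 metallothioneins chosen after the values were seen (of which it and Mt1 were tested), is listed at 0 in all CFS and CFA mice, so that it gives no response in CCN2fl/fl mice. It measured 0.0915, 0.184 and 0.313 FPKM in CSS and 1.34, 2.24 and 6.66 in CSA. The antisense gene Gm45774 (chromosome 8, 94170748 to 94173412), which lies near Mt1 and has 16.2% of its exonic bases within another gene, had responses of -2.26 and 2.28 (standard error 0.70 each), from 116, 21, 18 and 139 fragments in CFS, CFA, CSS and CSA, and the sources used here do not say whether counting used the strand.

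Gadd45g (ENSMUSG00000021453, chromosome 13, 51846678 to 51848468), a growth arrest gene induced by stress and cytokines, measured 64.2, 50.4 and 59.9 FPKM in CFS, 19.3, 23.9 and 43.6 in CFA, 29.9, 41.2 and 29.8 in CSS, and 72.5, 85.3 and 43.2 in CSA. The groups were apart in both genotypes, with CSA mouse 03 only just above CSS, and the responses were -1.09 and 0.95 (standard error 0.31 each). Nfkbia, which encodes the inhibitor IκBα and is itself induced by NF-κB, measured 68.6, 46.4 and 76.7 FPKM in CFS, 31.0, 33.6 and 52.9 in CFA, 46.5, 38.0 and 47.2 in CSS, and 80.0, 79.7 and 75.0 in CSA. CFS and CFA overlapped, and the responses were -0.71 and 0.84 (standard error 0.23 each). Of 9 other genes that hold back NF-κB, chosen after the values were seen, 4 were called higher and 0 lower in CCN2SMCΔ mice, beside 10.9% and 9.36% of all tested genes. In CCN2fl/fl mice 0 of the 9 passed an unadjusted p under 0.05, beside 9.42% of all tested genes. There, 7 of the 9 had a higher estimate, beside 49.7%, and the median responses in the 2 genotypes were 0.13 and 1.13.

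Mmp9 (ENSMUSG00000017737, chromosome 2, 164940780 to 164955850), a gelatinase made by neutrophils and macrophages, measured 4.95, 5.66 and 4.19 FPKM in CFS, 2.33, 5.09 and 2.80 in CFA, 3.91, 3.66 and 2.77 in CSS, and 19.2, 20.8 and 16.9 in CSA. CFA mouse 72 lay within the range of CFS, so that the CCN2fl/fl groups overlapped, and the responses were -0.59 and 2.44 (standard error 0.26 each). Mmp9 stayed in the set in 5 of the 12 fits without 1 mouse. Of the 13 neutrophil markers tested from a list of 15, the 12 other than Mmp9 were all called higher in CCN2SMCΔ mice, beside 10.9% of all tested genes. A marker could pass the filter (FPKM of 1 in 3 or more mice) through the CSA mice alone, so this count was partly set by the filter. In CCN2fl/fl mice 4 of the 12 were higher and 0 lower at an unadjusted p under 0.05, beside 5.61% and 3.81%. The summed level of the 13 was 8.94 to 21.9 FPKM in CFS, 14.4 to 35.6 in CFA, 8.25 to 9.83 in CSS and 593.8 to 691 in CSA, with Camp at 0 in all CFS mice and Ngp at 0 in all CFA and all CSS mice. The 24 macrophage markers, none of them at 0 in a group, summed to 378 to 442 FPKM in CFS, 448 to 929.7 in CFA, 386 to 459 in CSS and 2972 to 3207 in CSA. Their part in the values of Mmp9 was not tested.

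Thbs4 (ENSMUSG00000021702, chromosome 13, 92751590 to 92794818), a thrombospondin of injured tissue, measured 1.22, 0.861 and 0.194 FPKM in CFS, 0.209, 0.201 and 0.143 in CFA, 0.0327, 0.131 and 0.0559 in CSS, and 1.3, 0.545 and 1.51 in CSA. CFS mouse 70 lay within the range of CFA, and the responses were -1.35 and 2.75 (standard error 0.60 each). Thbs4 stayed in the set in 3 of the 12 fits without 1 mouse, and so did Slc6a2. The noradrenaline transporter gene Slc6a2, a gene of sympathetic nerve, had responses of -0.94 and 1.33 (standard error 0.41 each), and CFS and CFA overlapped. The 12 Schwann cell and nerve markers tested, from a list of 18, had median responses of -0.45 and 0.25, of the same signs as those of Slc6a2. In CCN2fl/fl mice 3 of 12 had a higher estimate, beside 49.7% of all tested genes. There, 1 was higher and 0 lower at an unadjusted p under 0.05, beside 5.61% and 3.81%. In CCN2SMCΔ mice 2 were called higher, beside 10.9%, and 8 of 12 had an unadjusted p under 0.05 for the difference, beside 37.7%. Dbh was at 0 in all CSS mice. Their summed level was 102 to 132 FPKM in CFS, 104 to 112 in CFA, 90.2 to 108 in CSS and 76.0 to 106 in CSA, and their part in the values of Slc6a2 was not tested. The processed pseudogene Gm16464 (ENSMUSG00000082154, chromosome 7, 104501055 to 104502149) had responses of -1.01 and 3.05 (standard error 0.44 each), and the antisense gene Gm16015 (ENSMUSG00000087281, chromosome 5, 43909215 to 43909885) of -1.65 and 3.56 (0.69 each) from 15, 5, 3 and 55 fragments in CFS, CFA, CSS and CSA. Gm16464 stayed in the set in 6 of the 12 fits without 1 mouse, and Gm16015 in 8.

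**Figure D4:**
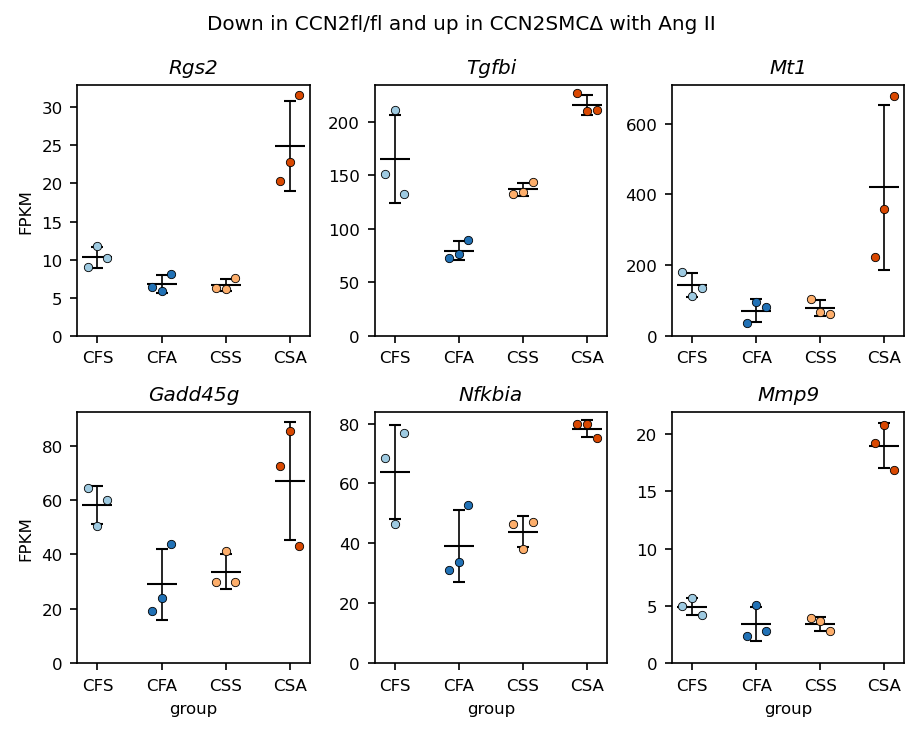
FPKM per mouse of 6 genes lower with Ang II in CCN2fl/fl and higher in CCN2SMCΔ mice, by group, with points for the mice and lines for the mean ± SD (n = 3). The 3 CSA mice are above the 3 CSS mice in all 6 panels, and CFS and CFA overlap for Nfkbia and Mmp9.

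The 853 genes with a response in CCN2SMCΔ mice and a bounded one in CCN2fl/fl mice (5.81% of those tested) were 278 that rose and 575 that fell. Interferon-stimulated genes, which are induced by interferon to restrict viruses, gave several of the largest increases. Ifit3 (ENSMUSG00000074896, chromosome 19, 34583531 to 34588731) measured 11.3, 5.12 and 7.21 FPKM in CFS, 5.71, 13.6 and 7.62 in CFA, 9.74, 7.58 and 13.1 in CSS, and 152, 151 and 225 in CSA. The CSA mice were far above the others, which overlapped, and the response in CCN2fl/fl mice was 0.17 with a 95% interval of -0.63 to 0.96, against 4.11 in CCN2SMCΔ mice. Oasl2 (chromosome 5, 114896936 to 114912234) had responses of 0.11 and 4.22, and Ifi211 (chromosome 1, 173896345 to 173913046) of 0.01 and 4.49. The mast cell receptor gene Milr1 (chromosome 11, 106751226 to 106768794) had responses of 0.15 and 4.40, and the blood cell factor Runx1 (chromosome 16, 92601466 to 92826149) of 0.13 and 3.75.

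Among the 575 genes that fell, Thsd4 (ENSMUSG00000032289, chromosome 9, 59966931 to 60522046), which encodes a protein of fibrillin microfibrils, measured 40.5, 48.9 and 38.6 FPKM in CFS, 32.7, 34.6 and 32.0 in CFA, 55.4, 44.1 and 49.7 in CSS, and 1.92, 1.46 and 1.31 in CSA. CFA lay below CFS without overlap, so its response in CCN2fl/fl mice was bounded and not absent, at -0.36 (95% interval -0.70 to -0.02), against -4.91. Stum (chromosome 1, 180432387 to 180483504) had responses of -0.22 and -6.06, Grip2 (chromosome 6, 91761509 to 91827250) of -0.28 and -4.89, and Optc (chromosome 1, 133897199 to 133907999), a proteoglycan gene, of 0.00 and -4.52. Ccdc3 (chromosome 2, 5137776 to 5230878) had responses of -0.14 and -5.06, and 69.1% of its exonic bases overlap another gene, so that counting could divide its fragments.

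Of 629 tested genes in the 29 lists, 5 (0.795%) were in the opposite set, beside 0.388% of all tested genes, and 78 (12.4%) among the 853, beside 5.81%. For the 44 interferon-stimulated genes the median responses were 0.13 and 2.85, with 0 at an unadjusted p under 0.05 in CCN2fl/fl mice (9.42% of all tested genes) and 41 called higher in CCN2SMCΔ mice (10.9%), and 21 were among the 853. For the 34 SMC genes the medians were -0.29 and -2.95, with 9 lower at an unadjusted p under 0.05 in CCN2fl/fl mice (3.81% of all tested genes), and 26 were among the 853. Myl9, whose promoter is shown above, had responses of -0.27 and -3.57.

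The 40 genes of the cell cycle and mitosis list had positive median responses in both genotypes. All 40 had a higher estimate in CCN2fl/fl mice, beside 49.7% of all tested genes, and 32 of them had an unadjusted p under 0.05, beside 5.61%. In CCN2SMCΔ mice 32 were called higher, beside 10.9%. The medians were 2.10 and 2.51. The median difference between the responses was 0.79, with 0 called by limma and 8 of 40 at an unadjusted p under 0.05, beside 37.7%, which does not show that the responses were equal. Their summed level was 55.2 to 62.5 FPKM in CFS, 66.7 to 196 in CFA, 75.3 to 90.2 in CSS and 249 to 299 in CSA.

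**Figure D5:**
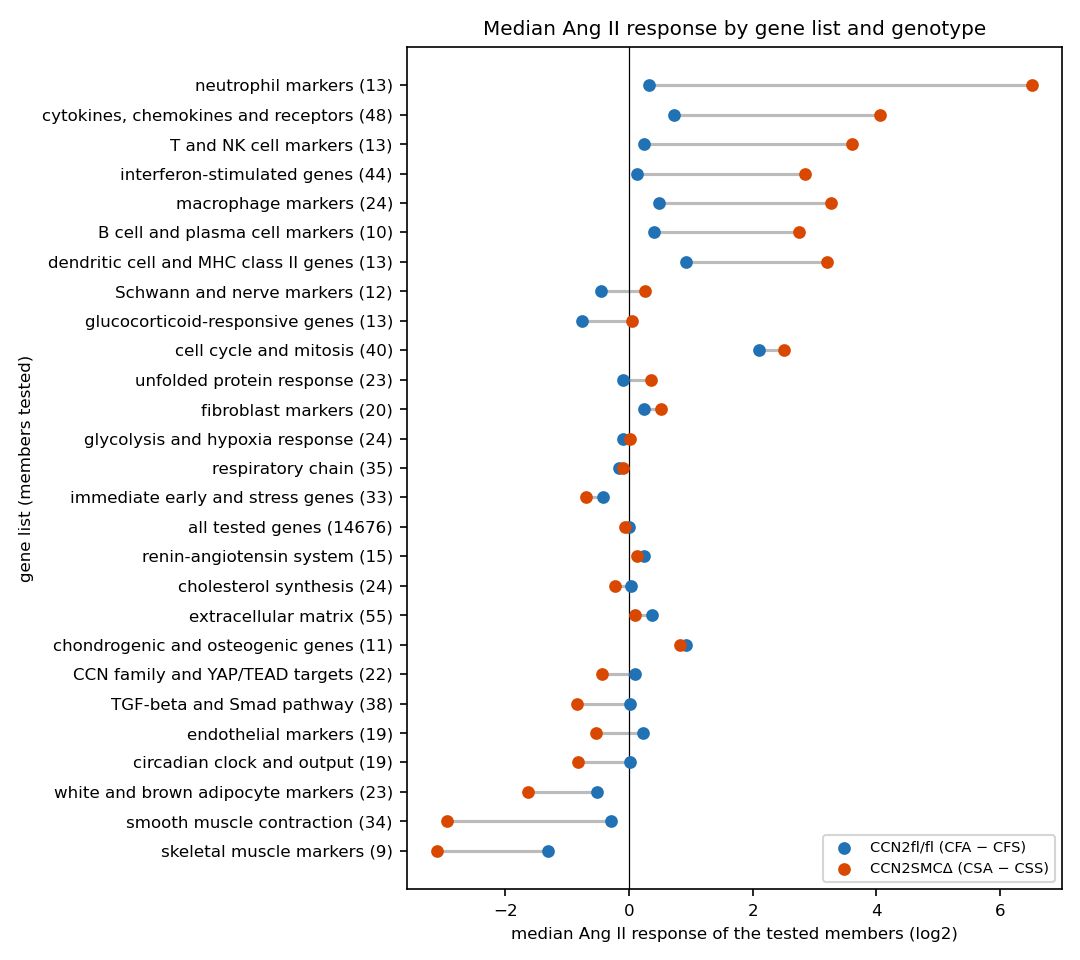
Median log2 response to Ang II of each list with 9 or more tested genes, and of all tested genes, in CCN2fl/fl mice (blue) and CCN2SMCΔ mice (orange), with the number tested in brackets. The lists chosen after the values were seen are left out. The medians are close for the cell cycle (2.10 and 2.51), and far apart for the interferon-stimulated genes (0.13 and 2.85) and the SMC genes (-0.29 and -2.95).

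Gene type, length and position were not used to choose the set. Of the 57 genes, 44 (77.2%) were protein-coding, beside 84.6% of all tested genes, 264 of the 278 and 541 of the 575. The median exonic length was 3627 bases, beside 3901, and the median of the mean level, which the filter on low values touches, was 5.53 FPKM, beside 5.52. The genes lay on 18 chromosomes.

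Repeating the choice of the set without each mouse showed how far it depends on single mice. Of the 57, 14 stayed in the set in all 12 fits that each left out 1 mouse: Rgs2, Hhip, Col4a5, Igfbp7, Uchl1, Ngef, Mlph, Gxylt2, Pamr1, Bace2, Snora2b, Gm38150 and 2 features without an Ensembl identifier. Another 17 stayed in at most 6 of the 12. Without CFA mouse 71 the set fell to 26 genes, of which 20 were shared, and without CFA mouse 74 it rose to 91, of which 43 were shared.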

How the data were processed

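Poly(A) RNA from the abdominal aorta of 12 male mice was sequenced by the authors as pairs of 150 bases on a NovaSeq. The authors deposited FPKM, with 1 value per gene and mouse. The submitters' processing notes name HISAT2 2.0.5, StringTie 1.3.3b, featureCounts 1.5.0-p3 and mm10, and the annotation version is not given in the sources used here. The study used DEG-Seq, and since the table holds no counts, limma was used here. Of 55092 features, 54532 have an Ensembl identifier, and GENCODE M21 gave symbols, positions and exon lengths for 54495. With these lengths, 98.0% to 98.5% of values under 100 fragments came out whole (tolerance 0.05), from 14558580 to 23107811 fragments per library. The deposited values are already scaled to equal median ratios between libraries. An FPKM of 0 is compatible with up to 3 fragments, by counting error alone. No column (0) was left unused.

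limma 3.58.1 (under R 4.3.3) fitted log2(FPKM + 0.1) of all 12 libraries with a mean for each of the 4 groups, no covariate, and empirical Bayes moderation that was robust and followed the trend with level. The pseudocount understates changes of low genes. Benjamini-Hochberg adjustment ran over the 14676 genes that reached an FPKM of 1 in 3 or more libraries. The p-values rest on 1 spread between mice per gene, pooled over the 4 groups of 3 mice. The mice of each genotype therefore also enter the standard error and p of the response in the other genotype. The test was checked on simulated data with known changes before use. Python 3.11.15 served for tables, with numpy 2.4.6 and pandas 2.3.3, and matplotlib 3.10.9 for plots.

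Named genes were Ccn2, up to 12 genes per opposite order with the largest smaller response among those with groups apart in both genotypes and a highest group mean of at least 2 FPKM, 5 genes per direction with the largest difference among the 853 with a highest mean of at least 10 FPKM, and up to 3 members of the opposite set per list. Features without a gene symbol were counted and not named. Where a list or a member of the opposite set falls outside the rule, the text says so. Ptch1, Col4a4, Col4a6, Rgs4, Rgs5, Mt2 and Myl9 are not in that set and were also named outside the rule. So were the genes just short of the threshold for the set, and the markers without signal in a group. The members, the rule and the lists were chosen with earlier results of these data known. The alternatives were 9 other settings and leaving out each mouse.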

Additional observations from a re-analysis of the deposited data

Results flagged for a closer look

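For the genes named by the rule and called in the test of the difference, the response to Ang II differed between the genotypes by the interaction term of limma. The values are the response in CCN2SMCΔ minus that in CCN2fl/fl mice on the log2 scale, and since the genes were chosen partly by this test they are no independent support. Groups of 3 mice were not tested for outliers. The values of 8 low genes, given under the dependence on the processing, move by over 1.5 times with a pseudocount of 1.

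Among the genes higher with Ang II in CCN2fl/fl and lower in CCN2SMCΔ mice, the difference was -4.78 for Gm49060, -4.28 for 4930579P08Rik, -4.13 for Olfm2, -3.04 for Nkx2-3, -2.95 for Ngef, -2.79 for Mlph, -2.40 for Adamtsl2, -2.27 for Snord123, -2.19 for Uchl1, -2.06 for Postn, -1.76 for Sec14l2 and -1.65 for Fbln5. Among those with the reverse order it was 5.21 for Gm16015, 4.10 for Thbs4, 4.07 for Gm16464, 3.41 for Mt1, 3.03 for Mmp9, 2.46 for Rgs2, 2.04 for Gadd45g and 1.68 for Tgfbi.

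Among the genes with a bounded response in CCN2fl/fl mice, the difference was 4.47 for Ifi211, 4.25 for Milr1, 4.11 for Oasl2, 3.95 for Ifit3 and 3.62 for Runx1, and -5.83 for Stum, -4.92 for Ccdc3, -4.61 for Grip2, -4.56 for Thsd4 and -4.52 for Optc.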

How the results depend on the processing

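With 3 mice per group the size of the opposite set was not stable. Leaving out each mouse in turn gave 26 to 97 genes in the opposite set, 19 to 74 of them up and down and 7 to 23 down and up, 1006 to 1238 higher and 933 to 1193 lower interaction calls, 618 to 923 genes with a bounded response, 0 to 124 calls in CCN2fl/fl mice (124 without CFA mouse 74 and 17 without CSA mouse 03), and 2825 to 3137 in CCN2SMCΔ mice. Other counts that moved by over 1.5 times were as follows. A pseudocount of 1 gave 1918 calls in CCN2SMCΔ mice and 9 genes down and up, and no filter on low values gave 23 down and up. A mean FPKM of at least 5 gave 448 higher and 630 lower interaction calls, 1272 calls in CCN2SMCΔ mice, an opposite set of 29 (22 and 7) and 568 bounded genes, from 7780 genes tested. Array weights gave 147 calls in CCN2fl/fl mice and an opposite set of 202 (141 and 61), which held 55 of the 57. Without a fold limit there were 1873 higher and 2004 lower interaction calls, 6781 calls in CCN2SMCΔ mice and 2421 bounded genes. The 4 calls in CCN2fl/fl mice became 10 with FPKM scaled to the same sum, 1 without trend and robust settings and 14 over protein-coding genes. Without CFA mouse 72 and CSA mouse 03 together, in each Ang II group the mouse farthest from the others, an alternative chosen after seeing the data, the opposite set was 132 (92 and 40), of which 43 were shared. The cause of these shifts was not tested. The count of 0 for the strict test held in all 21 planned and 1 added alternative. Median-of-ratios scaling left every value as it was, and the strict test does not use the fold limit, so these settings could not change that count. No difference of a gene named by the rule reversed, and the other genes in the text were not followed 1 by 1. With a pseudocount of 1 the difference moved by over 1.5 times for 8 low genes named by the rule, to -2.02 for Olfm2, -2.34 for Gm49060, -1.87 for 4930579P08Rik, -1.66 for Mlph, 2.11 for Gm16015, 2.25 for Gm16464 and the values below for Nkx2-3 and Thbs4. Other members close to 0 in CSA, such as Hhip, depend on the pseudocount as well, and their values under it were not computed. Under the fold limit of 1.5 went Nkx2-3 (-1.48), Sec14l2 (-1.18) and Thbs4 (1.47) with a pseudocount of 1, Fbln5 (-1.50) without CFA mouse 71, and Sec14l2 (-1.49) and Tgfbi (1.49) without CFS mouse 69. Depth limits the low genes, several of which rest on under 20 fragments in a group. No paired analysis was possible because the mouse numbers are not shared between groups.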

Other observations

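The list of immediate early and stress genes, with 33 genes tested, had median responses of -0.43 in CCN2fl/fl and -0.69 in CCN2SMCΔ mice. In CCN2fl/fl mice 7 were lower and 0 higher at an unadjusted p under 0.05, beside 3.81% and 5.61% of all tested genes, and in CCN2SMCΔ mice 8 were called lower and 3 higher, beside 9.36% and 10.9%. The 19 circadian genes had medians of 0.01 and -0.82, with 7 called lower in CCN2SMCΔ mice, beside 9.36% of all tested genes. The 23 adipocyte markers had medians of -0.52 and -1.64, with 10 called lower in CCN2SMCΔ mice, beside 9.36%. Their summed level ranged from 1379 to 4542 FPKM in CFS, 815 to 1889 in CFA, 543 to 1529.6 in CSS and 250.4 to 482 in CSA. Their part in the other results was not tested.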
